A study of Homo sapiens with 38 samples.

Results

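A set of 5 mature microRNAs (miRNAs) that are known as raised in colorectal tumours were followed through the material released by DiFi cells, a human colorectal cancer line: hsa-miR-31-5p, hsa-miR-135b-5p, and the 3 miRNAs of the miR-183 cluster, hsa-miR-182-5p, hsa-miR-183-5p and hsa-miR-96-5p. They were chosen by name, as the rows of the deposited small RNA count table that carry one of these names. All 5 were found, among 1559 miRNA rows and 22549 small RNA features. miR-31-5p was almost absent, with 65 counts over all libraries, so what follows rests on the other 4.

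The 38 libraries fall into 11 groups that differ in how the cells were grown and how the released particles were separated; all are labelled as DiFi, and no group has a drug treatment or an engineered allele in the labels. Cells grown flat (2D; 3 pools of 1360 mL of medium, 48 h without serum) gave 3 libraries each of small extracellular vesicles (sEV; pelleted at 167000 g for 4 h), exomeres (167000 g for 16 h) and supermeres (367000 g for 16 h) by ultracentrifugation (UC). Cells grown in a hollow-fibre bioreactor (3D; 4 pools of about 400 mL) gave the same 3 UC fractions with 3 libraries each, 4 libraries each of exomeres and of supermeres by liquid chromatography (FPLC), and 4 each of 3 pools from a cushion density gradient, named 6_7, 9_10 and 12. Which gradient pool holds lighter vesicles, heavier vesicles or material outside vesicles is not tied to a pool number in the labels. Nothing ties the library letters to medium pools either, so each p-value reflects the scatter among the libraries, which may be technical.

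Exomeres and supermeres are small particles without a membrane, whereas sEV are enclosed by one. A mature miRNA is cut from a hairpin, loaded onto an Argonaute protein, and recognises messenger RNAs mainly through its seed, the bases near its 5′ end. miR-135b-5p is known to target the tumour suppressor APC, the miR-183 cluster is transcribed as a unit and acts on FOXO transcription factors, and miR-31-5p is known for its rise in a serrated subset of colorectal tumours.

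The mature sequences are shown because the cluster miRNAs are close relatives that differ at single seed bases; they come from RefSeq (GRCh38.p14) and equal those in the deposited table. All 5 matched, bases run 5′ to 3′, and capitals mark the seed, bases 2 to 8.
hsa-miR-182-5p: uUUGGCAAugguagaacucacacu
hsa-miR-96-5p: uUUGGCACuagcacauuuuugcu
hsa-miR-183-5p: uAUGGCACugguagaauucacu
hsa-miR-135b-5p: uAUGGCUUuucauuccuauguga
hsa-miR-31-5p: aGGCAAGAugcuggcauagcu

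Counting positions from 1 at the 5′ end, the seed of miR-182-5p differs from that of miR-96-5p by A8C, and the seed of miR-183-5p differs from that of miR-96-5p by A2U. miR-182-5p and miR-183-5p differ by U2A and A8C. No 2 of the 5 share a whole seed. Among the other rows of the table, hsa-miR-1271-5p has the seed of miR-96-5p but only 247 counts in all, and hsa-miR-135a-5p, which differs from miR-135b-5p by C11U, has 32.5. In 6 libraries the miR-135b-5p value was not whole, and how reads were shared between near-identical miRNAs is not given in the sources used here.

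In GRCh38 coordinates the cluster lies on the minus strand at chr7:129774967-129774988 (miR-183-5p), chr7:129774739-129774761 (miR-96-5p) and chr7:129770447-129770470 (miR-182-5p), each inside its own miRNA gene and in no other gene of GENCODE 29. Only 228 bases separate the starts of miR-183-5p and miR-96-5p, and 4292 bases those of miR-96-5p and miR-182-5p. miR-135b-5p (chr1:205448361-205448383, minus strand) lies in an intron of the protein-coding gene LEMD1, and miR-31-5p (chr9:21512158-21512178, minus strand) in an intron of its host gene MIR31HG.

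Library totals ranged from 81079 counts in gradient pool 9_10 to 16991360 in 2D sEV, apart from 1 library (3D UC supermere A) with 46 counts, which was left out of every value and test except where stated. miRNAs made up 52.0% ± 3.83 (SD, n = 3) of counts in 2D sEV and 63.1% ± 5.31 (n = 3) in 2D exomeres, but 29.4% ± 9.10 (n = 3) in 3D sEV, 9.54% ± 2.76 (n = 3) in 3D UC exomeres, 4.45% ± 4.00 (n = 2) in 3D UC supermeres and 7.85% ± 10.1 (n = 4) in FPLC supermeres. Values are therefore given as counts per 1000000 counts of all features (CPM) and, where it matters, per 1000000 miRNA counts. Of the 5 intestinal epithelial miRNAs listed none was at 0 in any group, and their summed level in 2D sEV was 100260 to 147648 per 1000000 miRNA counts (below, CPM of miRNA). In the same unit the epithelial sum was 8665 to 17713 in 2D exomeres, 1465 to 4329 in FPLC supermeres and 995 to 2481 in pool 12, so it was lower there, as the members were, and its part in the results was not tested. The 5 blood and serum miRNAs listed summed to at most 465 CPM of miRNA and 5 mesenchymal and muscle miRNAs to at most 1299, both in 3D UC supermeres. In both lists 0 miRNAs were without counts in 2D sEV and 4 of 5 in pool 12, with the other groups from 0 to 4.

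miR-31-5p had counts in 9 libraries. In 2D sEV it had 0, 6 and 10 counts, and in 3D sEV 4, 1 and 2. FPLC exomeres held 17 and 18 counts in replicates B and D and 0 in replicates A and C. A further 5 counts were in gradient pool 6_7 replicate B and 2 in pool 9_10 replicate D. No count was found in any UC exomere, UC supermere, FPLC supermere or pool 12 library. Its highest group mean was 2.69 CPM ± 5.38 (SD, n = 4), in pool 9_10, where that single library of 2 counts set it.

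**Figure D1:**
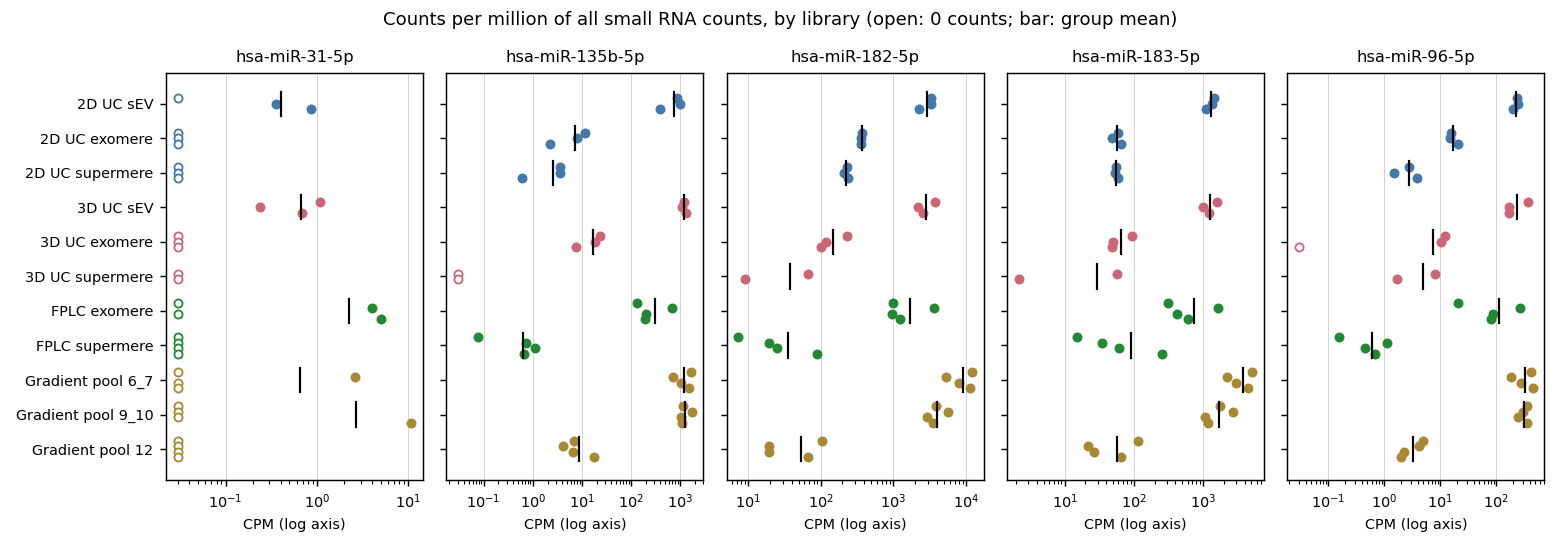
Level of the 5 miRNAs in each of 37 libraries, in CPM on a log axis, by group; open points at the left edge of the axis mark 0 counts and bars the group mean. miR-135b-5p, miR-182-5p, miR-183-5p and miR-96-5p stand highest in sEV, gradient pools 6_7 and 9_10 and FPLC exomeres, while miR-31-5p is at 0 in most libraries.

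Ordered by mean CPM, miR-182-5p was highest in gradient pool 6_7 (9186 ± 3169, SD, n = 4), then pool 9_10 (3983 ± 1166, n = 4), 2D sEV (2951 ± 617, n = 3), 3D sEV (2827 ± 806, n = 3) and FPLC exomeres (1684 ± 1269, n = 4). It then dropped to 365 ± 0.529 (n = 3) in 2D exomeres, 227 ± 12.9 (n = 3) in 2D supermeres and 150 ± 71.7 (n = 3) in 3D UC exomeres. Lowest were pool 12 (53.2 ± 41.9, n = 4), 3D UC supermeres (37.7 ± 40.3, n = 2) and FPLC supermeres (35.6 ± 37.4, n = 4). Neighbours among the 5 highest groups overlapped, and so did neighbours from 2D supermeres downwards; 2D exomeres overlapped no other group.

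miR-183-5p and miR-96-5p were lower than miR-182-5p in the groups where miR-182-5p was highest, but had the same groups at the top. Mean miR-183-5p was 3738 CPM ± 1347 (n = 4) in pool 6_7, 1694 ± 765 (n = 4) in pool 9_10, 1288 ± 170 (n = 3) in 2D sEV, 1267 ± 306 (n = 3) in 3D sEV and 749 ± 618 (n = 4) in FPLC exomeres. Its remaining groups lay between 29.8 ± 39.1 (n = 2) in 3D UC supermeres and 92.2 ± 112 (n = 4) in FPLC supermeres, and their ranges overlapped. miR-96-5p, the least abundant of the cluster, ran from 332 ± 126 (n = 4) in pool 6_7 to 0.596 ± 0.395 (n = 4) in FPLC supermeres.

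miR-135b-5p was about level by the means in pool 9_10 (1257 CPM ± 326, n = 4), 3D sEV (1212 ± 107, n = 3) and pool 6_7 (1240 ± 438, n = 4), and miR-96-5p too was about level between the 2 pools. 2D sEV had 752 ± 325 (n = 3) and FPLC exomeres 305 ± 260 (n = 4). The other groups had 16.8 ± 8.22 (n = 3, 3D UC exomeres) or less, down to 0 counts in both 3D UC supermere libraries that were kept.

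As a share of all miRNA counts, the 5 together reached 3.18% ± 0.282 (SD, n = 4) in pool 6_7, 1.92% ± 0.188 (n = 3) in 3D sEV, 1.64% ± 0.502 (n = 4) in pool 9_10, 1.10% ± 0.253 (n = 4) in FPLC exomeres and 0.997% ± 0.168 (n = 3) in 2D sEV. Every exomere and supermere group made by UC, and FPLC supermeres, lay at 0.244% ± 0.0469 (n = 3, 3D UC exomeres) or below, and pool 12 was lowest at 0.0308% ± 0.0171 (n = 4).

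**Figure D2:**
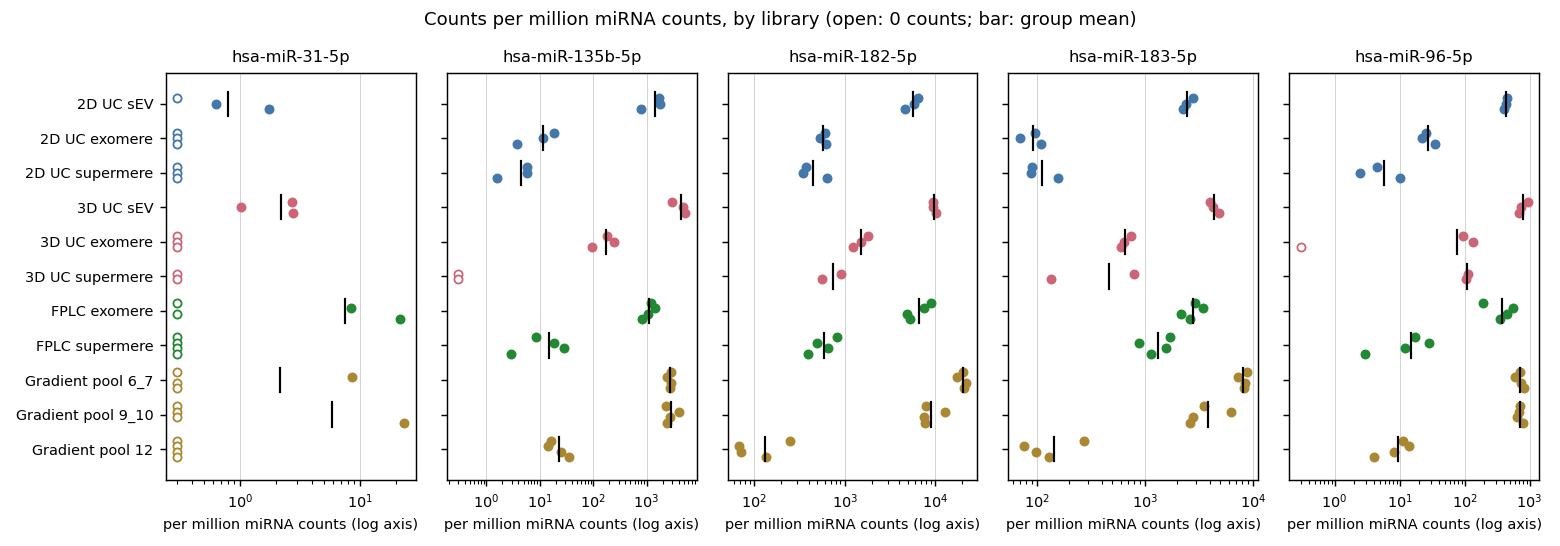
The same libraries with each miRNA in CPM of miRNA on a log axis; open points mark 0 counts and bars the group mean. On this scale 3D UC exomeres lie above 2D exomeres for miR-135b-5p (94.2 to 244 against 3.71 to 18.8) and miR-183-5p (599 to 749 against 69.6 to 110).

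The first comparison asked how the non-vesicular particles of 2D cultures differ from sEV. In 2D sEV miR-135b-5p, the APC-targeting miRNA, had 864, 1006 and 385 CPM. In 2D exomeres it had 11.4, 8.08 and 2.20 CPM, and in 2D supermeres 3.62, 3.63 and 0.601. Neither particle group overlapped sEV, and the means were 104-fold and 287-fold lower. The log2 fold changes were -6.70 (SE 1.06, adjusted p = 1.3e-07) and -8.18 (SE 1.13, adjusted p = 1.7e-10), by edgeR's quasi-likelihood test with Benjamini-Hochberg adjustment over 8979 features, which is the test behind every adjusted p below unless another is named. A bulk library cannot tell fewer particles carrying a miRNA from less of it per particle. Overlap of ranges was examined only for named miRNAs, here and below, so how common its absence was over all features is not known.

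miR-182-5p, the most abundant of the 5, fell least. It had 3315, 3300 and 2239 CPM in 2D sEV, 366, 365 and 365 in exomeres and 231, 213 and 237 in supermeres, so the 3 groups did not overlap. Exomeres were 8.08-fold lower (log2 -3.01, SE 0.801, adjusted p = 0.00637) and supermeres 13-fold lower (log2 -3.70, SE 0.826, adjusted p = 2.8e-04). Without exomere replicate B the exomere call was lost (log2 -3.01, adjusted p = 0.052).

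The other cluster members also fell. miR-183-5p went from 1430, 1336 and 1100 CPM in sEV to 58.3, 48.1 and 65.4 in exomeres and 55.6, 54.5 and 58.4 in supermeres (log2 -4.49, SE 0.909, adjusted p = 7.4e-05, and -4.52, SE 0.910, adjusted p = 3.8e-05). The exomere and supermere values overlapped each other and not those of sEV. miR-96-5p had 236, 243 and 198 CPM in sEV, 15.3, 15.1 and 20.7 in exomeres and 2.82, 1.5 and 3.86 in supermeres. The exomere fall was log2 -3.73 (SE 1.04, adjusted p = 0.0109) and the supermere fall -6.35 (SE 1.18, adjusted p = 4.5e-06). The exomere call for miR-96-5p did not hold when any 1 of the exomere libraries was left out (adjusted p = 0.0731, 0.0801 and 0.0537 without A, B and C), nor without the filter on low counts (adjusted p = 0.056).

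In all, 4 of the 5 fell in 2D exomeres and 4 of 5 in 2D supermeres, where 3.12% and 4.52% of all tested features were lower, and 14.7% and 22.2% of miRNA rows. The median log2 changes of the 4 abundant members were -4.11 and -5.43, against 1.82 and 1.12 over all features and -0.79 and -2.04 over miRNA rows. miR-31-5p was not called (adjusted p = 0.337 and 0.384). Between 2D supermeres and 2D exomeres none of the 5 was called, where 0.123% of features were; miR-96-5p had the widest gap among them, 6.24-fold lower in supermeres without overlap (log2 -2.62, SE 0.997, adjusted p = 0.593). edgeR called 11 features there and DESeq2 132, none of them a member.

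The same UC fractions from the bioreactor were compared next. miR-135b-5p had 1208, 1107 and 1320 CPM in 3D sEV, 23.7, 19.0 and 7.66 in 3D UC exomeres and no count in supermeres B and C. The exomere mean was 72.3-fold lower (log2 -6.18, SE 1.03, adjusted p = 1.3e-06). Set against 3 counts over the group, supermeres were by CPM at least 2508-fold lower than sEV (adjusted p = 1.0e-11) and at least 34.7-fold lower than exomeres (adjusted p = 2.7e-04). The latter call was lost without supermere C (adjusted p = 0.16), which leaves 1 supermere library that is assumed to vary like the other groups.

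miR-182-5p had 3736, 2198 and 2549 CPM in 3D sEV, 232, 117 and 101 in 3D UC exomeres and 66.1 and 9.18 in supermeres B and C. No range overlapped another. Exomeres were 18.8-fold lower (log2 -4.23, SE 0.847, adjusted p = 8.4e-05) and supermeres 75.1-fold lower (log2 -6.24, SE 1.12, adjusted p = 4.5e-06) than sEV; between supermeres and exomeres the test was not passed (log2 -2.0, SE 0.899, adjusted p = 0.374).

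miR-183-5p had 1596, 992 and 1212 CPM in 3D sEV, 95.2, 49.5 and 48.7 in exomeres, and 57.4 and 2.18 in supermeres. It was 19.7-fold lower in exomeres (log2 -4.30, SE 0.901, adjusted p = 2.2e-04) and 42.5-fold lower in supermeres (log2 -5.42, SE 1.14, adjusted p = 1.6e-04). miR-96-5p had 373, 171 and 171 CPM in 3D sEV, 12.1, 10.5 and 0 in exomeres, and 8.21 and 1.69 in supermeres. It was 31.6-fold lower in exomeres (log2 -4.99, SE 1.10, adjusted p = 5.6e-04) and 48.1-fold lower in supermeres (log2 -5.61, SE 1.37, adjusted p = 0.00215). The supermere calls of both rested on supermere C: without it adjusted p was 0.14 for miR-183-5p (log2 -4.46) and 0.331 for miR-96-5p (log2 -4.86). With miRNA totals as library sizes the supermere call of miR-96-5p was also lost (log2 -2.85, adjusted p = 0.17). Without supermere B the supermere values were log2 -8.26 for miR-182-5p, -9.17 for miR-183-5p and -7.12 for miR-96-5p, all still called, and without supermere C miR-182-5p was at -5.42 (adjusted p = 0.0196). Without exomere C the exomere value of miR-96-5p was log2 -4.40 (adjusted p = 0.0238).

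Thus 4 of 5 fell in 3D UC exomeres and 4 of 5 in 3D UC supermeres against sEV, where 4.87% and 3.98% of all features and 25.5% and 21.3% of miRNA rows were lower. The median log2 changes of the 4 abundant members were -4.64 and -5.92 (the latter the same with miR-135b-5p at its bound), beside -0.32 and -2.46 over all features and -2.93 and -4.39 over miRNA rows. miRNAs made up less of the counts in these particles than in sEV, and in CPM of miRNA the falls were smaller. Exomeres were 24.9-fold, 6.33-fold, 6.60-fold and 10.2-fold lower for miR-135b-5p, miR-182-5p, miR-183-5p and miR-96-5p. Supermeres were 13.1-fold, 9.45-fold and 7.21-fold lower for miR-182-5p, miR-183-5p and miR-96-5p. None of these ranges overlapped that of sEV. For miR-135b-5p the supermere bounds given above hold for CPM, and they would be smaller in CPM of miRNA. miRNAs were 4.45% of counts in 3D UC supermeres, 9.54% in 3D UC exomeres and 29.4% in 3D sEV. Of the 5, 1 was lower in 3D supermeres than in 3D UC exomeres, where 0.245% of features and 2.25% of miRNA rows were.

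The 2 cultures were compared within each UC fraction. Their medium pools also differed in volume (1360 mL in 2D, about 400 mL in 3D), and a serum-free time (48 h) is given for 2D only. These differences cannot be told apart from culture. In sEV none of the 5 was called between 3D and 2D (0.813% of features were): miR-182-5p was 2827 against 2951 CPM on average and miR-183-5p 1267 against 1288, both with overlapping ranges (log2 -0.06, SE 0.742, and -0.02, SE 0.786). miR-135b-5p was 1.61-fold higher in 3D sEV without overlap, and did not pass (log2 0.69, SE 0.828, adjusted p = 0.63). In CPM of miRNA miR-135b-5p, miR-182-5p, miR-183-5p and miR-96-5p were 3.06-fold, 1.71-fold, 1.77-fold and 1.81-fold higher in 3D sEV, each without overlap. With miRNA totals none of these was called (log2 1.61, 0.78, 0.82 and 0.85, adjusted p = 0.455, 0.703, 0.702 and 0.752). The lack of overlap is a description only, since its share among other miRNA rows was not counted.

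In exomeres the calls differed between scales. By CPM none of the 5 was called between 3D and 2D, where 49.5% of features were: miR-182-5p was 2.43-fold lower in 3D without overlap (log2 -1.28, SE 0.754, adjusted p = 0.129) and miR-183-5p overlapped (log2 0.17, SE 0.788, adjusted p = 0.866). Per miRNA count, miR-135b-5p rose by log2 3.94 (SE 0.866, adjusted p = 5.8e-04) and miR-183-5p by log2 2.85 (SE 0.779, adjusted p = 0.0101), where 3.54% of features rose, and miR-182-5p took the other sign without passing (log2 1.39, SE 0.707, adjusted p = 0.169). miR-135b-5p was also called higher with TMM scaling (log2 4.10, adjusted p = 0.00234; 3.44% of features rose) and in DESeq2 (log2 2.49, adjusted p = 0.00109; 2.86%), and DESeq2 called miR-183-5p higher too (log2 1.34, adjusted p = 0.0421). miRNAs were 9.54% of counts in 3D UC exomeres and 63.1% in 2D exomeres. The median over all features was log2 -4.27 by CPM and -1.88 per miRNA count.

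In supermeres 1 of 5 was lower in 3D than in 2D by CPM, where 7.47% of features and 16.6% of miRNA rows were. This was miR-135b-5p, with 3.62, 3.63 and 0.601 CPM in 2D and no count in 3D, at least 5.42-fold lower by CPM (adjusted p = 0.017). In CPM of miRNA the 2D values were 5.86, 5.93 and 1.60. The 3D libraries held 150652 and 66995 miRNA counts, too few for 0 counts to show a fall on that scale. The call was lost without 3D supermere B or C (adjusted p = 0.126 and 0.582), without the filter on low counts (0.0583), with TMM scaling (0.327), with miRNA totals (0.693) and in DESeq2 (0.0681). miR-182-5p did not pass (log2 -2.60, SE 0.926, adjusted p = 0.0535) except without 3D supermere B (log2 -4.63, adjusted p = 0.041), with the near-empty library kept (adjusted p = 0.0404) and in DESeq2 (adjusted p = 0.0255; 7.35% of features were lower). Per miRNA count miR-96-5p rose in 3D supermeres (log2 4.21, SE 1.06, adjusted p = 0.00378, where 2.76% of features rose), against log2 0.81 (SE 1.07, adjusted p = 0.524) by CPM. Both values rest on 17 and 7 counts in 3D and 14, 7 and 45 in 2D.

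Whether the gap between particles and sEV itself differed between cultures was tested as an interaction. For exomeres none of the 5 was called (0.846% of features were), with log2 differences from -1.26 (miR-96-5p, SE 1.32) to 0.52 (miR-135b-5p, SE 1.17) among the 4 abundant members. For supermeres 1 of 5 was, miR-135b-5p (adjusted p = 0.0338), where 0.991% of features were lower. Its fitted value rests on a group at 0, and the call was lost under TMM scaling (adjusted p = 0.313), miRNA totals (0.661), DESeq2 (0.15) and no filter (0.112), and without any 1 of 7 libraries: 2D sEV A or C, 2D supermere A or B, 3D sEV C, and 3D supermere B or C (adjusted p from 0.0578 to 0.864).

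**Figure D3:**
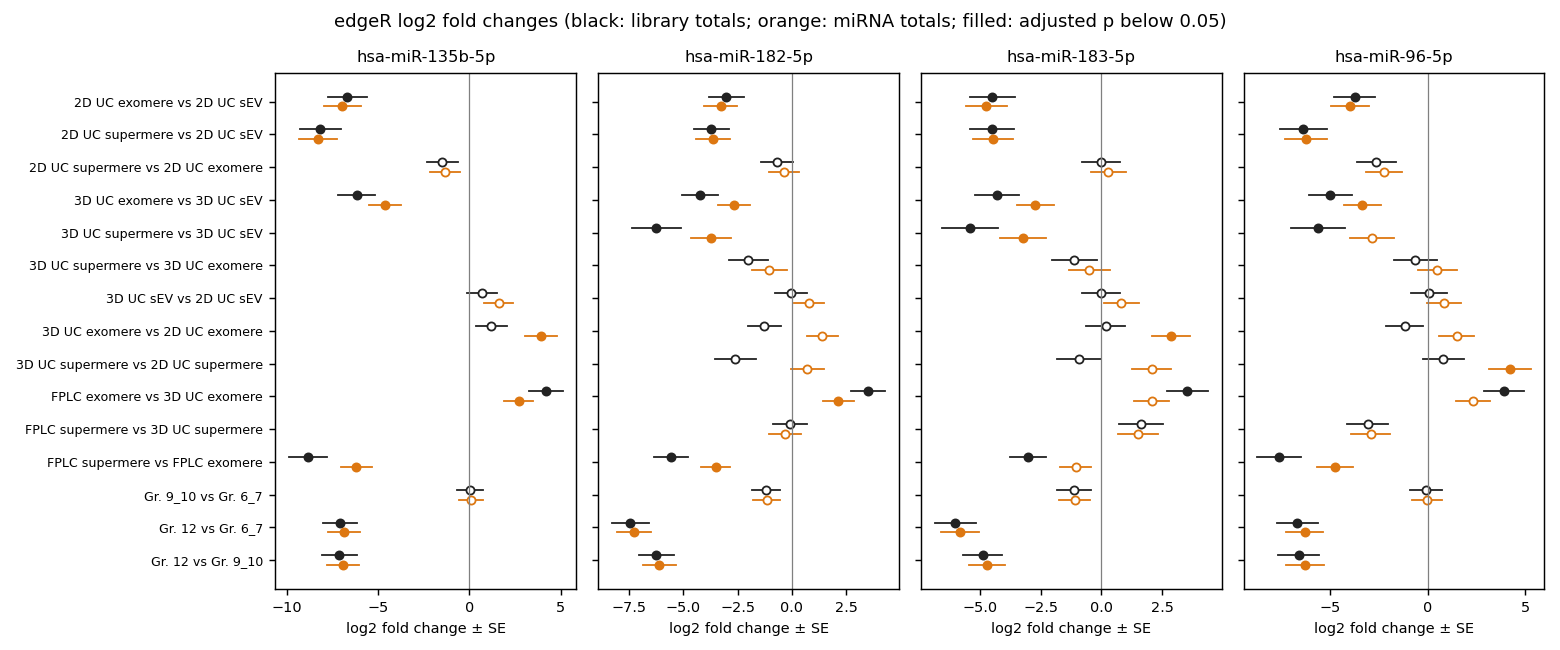
edgeR log2 fold changes with standard errors for the 4 abundant members in 15 comparisons, scaled by library totals (black) or miRNA totals (orange); filled points passed an adjusted p of 0.05, and comparisons with a group at 0 counts are not drawn. The falls from sEV to particles and to pool 12 lie left of 0 on both scales, whereas several of the 3D against 2D values lie on different sides of 0.

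Exomeres made by chromatography held more of these miRNAs than those made by UC. miR-135b-5p had 131, 692, 206 and 190 CPM in FPLC exomeres, all above the 7.66 to 23.7 CPM of 3D UC exomeres (18.2-fold by the means; log2 4.19, SE 0.921, adjusted p = 7.8e-04). miR-182-5p had 978, 3579, 955 and 1225 CPM, again above all UC exomeres (11.2-fold; log2 3.49, SE 0.798, adjusted p = 0.00135). miR-183-5p had 312, 1658, 417 and 610 CPM (11.6-fold; log2 3.54, SE 0.849, adjusted p = 0.00222), and miR-96-5p 20.4, 264, 86.3 and 80.4 (15.0-fold; log2 3.91, SE 1.02, adjusted p = 0.00658), also without overlap.

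So 4 of 5 were higher in FPLC exomeres, where 10.6% of features and 25.3% of miRNA rows were; the median of the 4 abundant members was log2 3.72, against 1.85 over all features and 1.79 over miRNA rows. Part of this depended on scaling. In CPM of miRNA the gaps were 6.49-fold, 4.38-fold, 4.21-fold and 4.99-fold for miR-135b-5p, miR-182-5p, miR-183-5p and miR-96-5p, each without overlap. With TMM only miR-135b-5p held (log2 2.82, adjusted p = 0.033; the other adjusted p were 0.0713, 0.0759 and 0.0798), and per miRNA count miR-135b-5p (log2 2.70, adjusted p = 0.0242) and miR-182-5p (log2 2.13, adjusted p = 0.0474) held. Without 3D UC exomere C, which had no miR-96-5p count, miR-96-5p was not called (log2 3.32, adjusted p = 0.0874). FPLC exomere B was the highest library for all 4; without it the values were log2 3.39 for miR-135b-5p, 2.81 for miR-182-5p, 2.79 for miR-183-5p and 3.06 for miR-96-5p, all still called. Between FPLC and 3D UC supermeres none of the 5 was called, where 0.468% of features were; DESeq2 called miR-183-5p higher (log2 2.67, adjusted p = 1.6e-04), where 0.546% of features were.

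Within FPLC, supermeres held far less of these miRNAs than exomeres. miR-135b-5p had 0.0772, 0.730, 1.10 and 0.676 CPM in supermeres, 471-fold lower by the means and with no overlap (log2 -8.86, SE 1.03, adjusted p = 4.3e-15). miR-182-5p had 7.41, 19.3, 25.0 and 90.6 CPM (47.3-fold lower; log2 -5.58, SE 0.783, adjusted p = 1.5e-10). miR-96-5p had 0.154, 1.10, 0.460 and 0.676 CPM, 189-fold lower (log2 -7.60, SE 1.11, adjusted p = 7.1e-10). Its supermere values rest on 2, 6, 5 and 1 counts.

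miR-183-5p fell less, to 15.4, 34.5, 60.5 and 258 CPM, 8.12-fold below FPLC exomeres and still without overlap (log2 -3.03, SE 0.737, adjusted p = 7.1e-04). This call was lost with TMM (log2 -0.77, adjusted p = 0.488), with miRNA totals (log2 -1.07, adjusted p = 0.254) and in DESeq2 (log2 -0.29, adjusted p = 0.756). miR-31-5p was called lower too (adjusted p = 0.018), on 35 counts in 2 exomere libraries against none (log2 -6.59, and -5.86 without FPLC exomere D). That call was lost with TMM (adjusted p = 0.216), miRNA totals (0.176), the replicate block (0.0841) and without FPLC supermere A (0.0639) or C (0.0562). By CPM 5 of 5 were thus lower, where 48.0% of all features and 51.6% of miRNA rows were, so the members' count lies in a comparison that moved many features. The median log2 change of the 4 abundant members was -6.59, beside -3.77 over all features and -3.32 over miRNA rows. In CPM of miRNA the falls were smaller and still without overlap. They were 76.7-fold for miR-135b-5p, 11.3-fold for miR-182-5p, 2.09-fold for miR-183-5p and 25.4-fold for miR-96-5p. Without FPLC exomere B the log2 values were -8.06 for miR-135b-5p, -4.90 for miR-182-5p, -2.28 for miR-183-5p and -6.75 for miR-96-5p. Without FPLC supermere D miR-182-5p was at -6.61 and miR-183-5p at -4.35, and without supermere B miR-96-5p was at -8.19; all of these were still called.

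In the density gradient pool 12 held far less of these miRNAs than the other 2 pools. miR-182-5p had 12097, 5263, 7997 and 11387 CPM in pool 6_7, 3891, 5624, 2911 and 3505 in pool 9_10, and 106, 19.7, 19.7 and 67.0 in pool 12. Pool 12 lay below both others, 173-fold and 74.9-fold by the means (log2 -7.43, SE 0.852, adjusted p = 2.1e-15, and log2 -6.23, SE 0.808, adjusted p = 2.9e-12). Pools 6_7 and 9_10 overlapped by CPM.

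miR-183-5p had 5179, 2224, 3041 and 4507 CPM in pool 6_7, 1737, 2758, 1085 and 1195 in pool 9_10, and 115, 22.2, 27.0 and 64.5 in pool 12. Pool 12 was 65.3-fold below pool 6_7 (log2 -6.03, SE 0.848, adjusted p = 1.9e-10) and 29.6-fold below pool 9_10 (log2 -4.89, SE 0.805, adjusted p = 8.2e-08). The second call was lost with TMM (log2 -1.39, adjusted p = 0.34). miR-135b-5p had 1685, 718, 1053 and 1504 CPM in pool 6_7, 1142, 1744, 1061 and 1082 in pool 9_10, and 6.83, 4.11, 6.74 and 17.6 in pool 12. It was 140-fold and 142-fold lower in pool 12 (log2 -7.11, SE 0.940, adjusted p = 8.8e-12, and log2 -7.13, SE 0.941, adjusted p = 7.1e-12). miR-96-5p had 423, 182, 273 and 448 CPM in pool 6_7, 353, 303, 247 and 355 in pool 9_10, and 4.88, 4.11, 2.25 and 2.01 in pool 12. It was 100-fold lower in pool 12 than in pool 6_7 and 94.9-fold lower than in pool 9_10 (log2 -6.67, SE 1.05, adjusted p = 1.9e-08, and log2 -6.60, SE 1.05, adjusted p = 2.7e-08). The pool 12 values of miR-96-5p rest on 5, 5, 4 and 4 counts.

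Pool 12 was lower for 4 of 5 against pool 6_7, where 5.39% of features and 43.8% of miRNA rows were, and for 4 of 5 against pool 9_10, where 43.5% and 50.4% were. The medians of the 4 abundant members were log2 -6.89 and -6.41, beside -5.41 and -4.71 over miRNA rows. Without pool 12 replicate D miR-135b-5p was at log2 -7.71 and -7.73, and without pool 12 replicate A miR-183-5p was at -6.62 and -5.48, all still called. Against pool 6_7 none of the 5 was called in pool 9_10, where 42.4% of features were, 3795 of them higher and 12 lower. Of miRNA rows 9 were higher and 6 lower. miR-182-5p (2.31-fold lower, log2 -1.20, SE 0.652, adjusted p = 0.114) and miR-183-5p (2.21-fold lower, log2 -1.14, SE 0.691, adjusted p = 0.165) did not pass, though in CPM of miRNA their ranges did not overlap. miR-135b-5p and miR-96-5p were level by the means (1.01-fold and 0.948-fold). With TMM, which moved the median of all features from log2 5.32 to 2.71, these 4 were lower in pool 9_10, where 4.40% of features were (log2 -2.74, -3.97, -4.01 and -2.71 for miR-135b-5p, miR-182-5p, miR-183-5p and miR-96-5p, adjusted p = 0.0129, 1.2e-04, 1.8e-04 and 0.0247). DESeq2 called miR-182-5p and miR-183-5p lower (adjusted p = 9.3e-05 and 0.00155; 1.39% of features were).

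The proportions of the 3 cluster miRNAs among themselves do not depend on library scaling, and all 3 are of nearly the same length. In 2D sEV miR-182-5p made up 65.8% ± 2.25 (SD, n = 3) of cluster counts, miR-183-5p 29.1% ± 1.88 and miR-96-5p 5.12% ± 0.444. The shares of miR-182-5p and miR-183-5p were close to these in 3D sEV (65.2%, 29.4% and 5.32%), 3D UC exomeres (67.3%, 29.5% and 3.16%), FPLC exomeres (67.3%, 28.6% and 4.12%), pool 6_7 (69.3%, 28.2% and 2.48%) and pool 9_10 (66.9%, 27.5% and 5.56%). In these 6 groups the ratio of miR-183-5p to miR-182-5p lay between 0.319 and 0.498 in every library. The miR-96-5p share was less alike: it was 2.37% to 2.74% in pool 6_7 against 4.75% to 5.61% in 2D sEV, without overlap, and ran from 0% to 5.92% in 3D UC exomeres.

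FPLC supermeres had the opposite order. Their miR-183-5p share was 67.1% (95% Wilson interval 61.6% to 72.2%), 62.8% (57.2% to 68.1%), 70.4% (67.4% to 73.2%) and 73.9% (69.9% to 77.5%), on 298 to 935 cluster counts. The ratio of miR-183-5p to miR-182-5p was 2.08, 1.78, 2.42 and 2.85, above that of every other library. In pool 12 both miRNAs were about level (miR-182-5p 45.1% ± 4.41 and miR-183-5p 50.7% ± 3.28, n = 4), with ratios of 1.08, 1.12, 1.37 and 0.962 on 56 to 265 cluster counts. 2D particles went the other way: miR-182-5p was 83.1% ± 2.15 (n = 3) of cluster counts in exomeres and 79.4% ± 0.346 (n = 3) in supermeres, and the ratio was 0.132 to 0.179 and 0.240 to 0.256. The 3D UC supermere libraries B and C had ratios of 0.869 and 0.237 on 273 and 54 counts, so they show no common order. Intervals cover counting error only, because reads copied by PCR were not told apart by molecular identifiers. These shares were singled out after their values were seen and are given without a test.

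**Figure D4:**
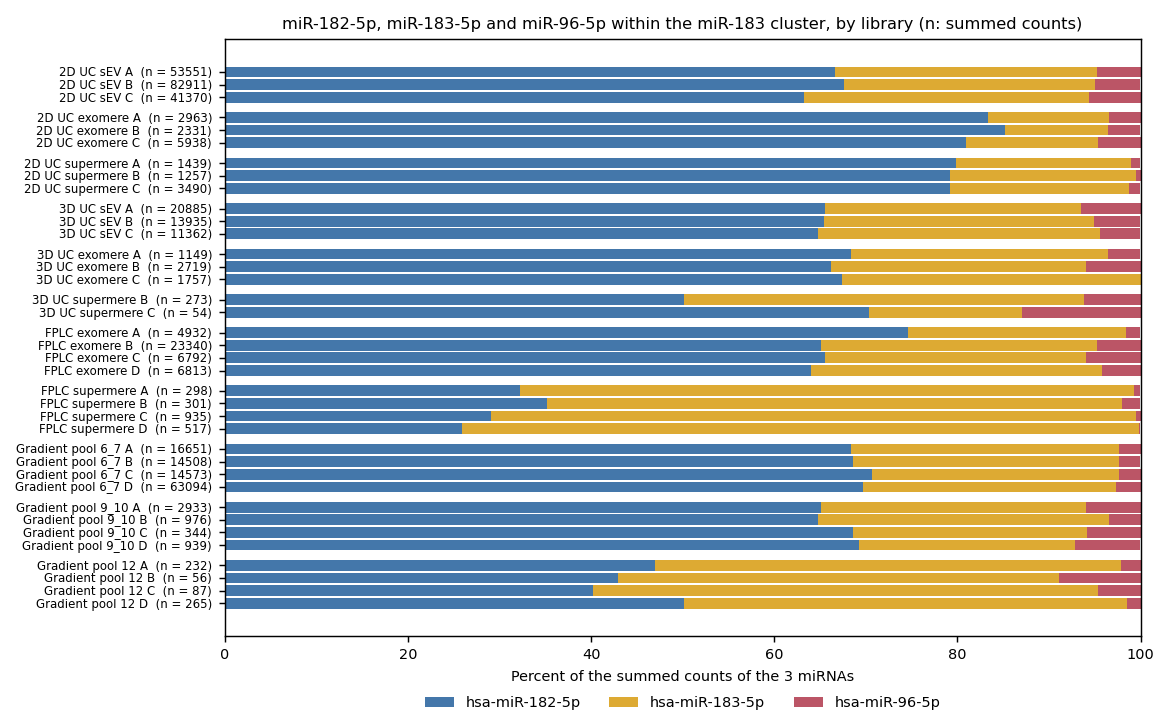
Share of miR-182-5p (blue), miR-183-5p (yellow) and miR-96-5p (red) in the summed counts of the 3 miRNAs, 1 bar per library with its summed count n. miR-182-5p takes 63.3% or more in all sEV, gradient 6_7 and 9_10 and FPLC exomere libraries, while miR-183-5p takes 62.8% to 73.9% in FPLC supermeres.

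Each hairpin also yields a second arm, the 3p miRNA, and its share differed between fractions. For miR-183 the 3p arm is shown with its seed in capitals.
hsa-miR-183-3p: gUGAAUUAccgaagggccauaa

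In 2D sEV miR-183-3p was 1.61%, 2.08% and 1.64% of the counts of both arms. In 2D exomeres it was 25.4%, 28.0% and 22.0%, and in 2D supermeres 26.8%, 30.5% and 23.8%, on 102 to 243 and 101 to 212 counts of the 3p arm. All 6 particle libraries lay above all sEV libraries. While miR-183-5p fell, miR-183-3p itself had 23.3 CPM in 2D sEV, 19.0 in exomeres and 20.8 in supermeres on average and was not called (log2 -0.30, SE 1.27, adjusted p = 0.868, and log2 -0.17, SE 1.27, adjusted p = 0.974). In 3D cultures the 3p share was 0.933% to 1.27% in sEV, 5.24% to 7.29% in UC exomeres and 4.08% to 15.6% in FPLC supermeres, and at most 2.56% in FPLC exomeres. It was 2.46% and 0% in 3D UC supermeres B and C, and 0%, 6.90%, 0% and 0.775% in pool 12, so not all particle libraries lay above sEV.

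miR-135b showed a like split on fewer counts. Its 3p arm was 0.809% ± 0.321 (SD, n = 3) of both arms in 2D sEV, 45.3% ± 10.4 (n = 3) in 2D exomeres and 67.1% ± 16.9 (n = 3) in 2D supermeres, the last on 90 counts of the 3p and 42 of the 5p arm. In 3D sEV it was 0.830% ± 0.329 (n = 3), and in 3D UC exomeres it spread from 0% to 27.4%. In FPLC supermeres it was 75.0%, 0%, 62.5% and 0%. These rest on 3, 0, 20 and 0 counts of the 3p arm and 1, 4, 12 and 1 of the 5p arm. In pool 12 it was 0% in all 4 libraries, on 59 counts of the 5p arm. For miR-182 the 3p arm never exceeded 3.63% of a library's counts of both arms. These shares are also a description. Of 7 other arms and paralogs listed, 6 were in the table and 4 passed the filter on low counts; miR-31-3p was not analysed here. None of those 4 was called between UC particles and sEV in either culture with library totals. With TMM miR-96-3p was lower in 2D exomeres (log2 -5.22, adjusted p = 0.0395) and miR-135b-3p in 3D UC supermeres (log2 -9.68, adjusted p = 0.0351).

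**Figure D5:**
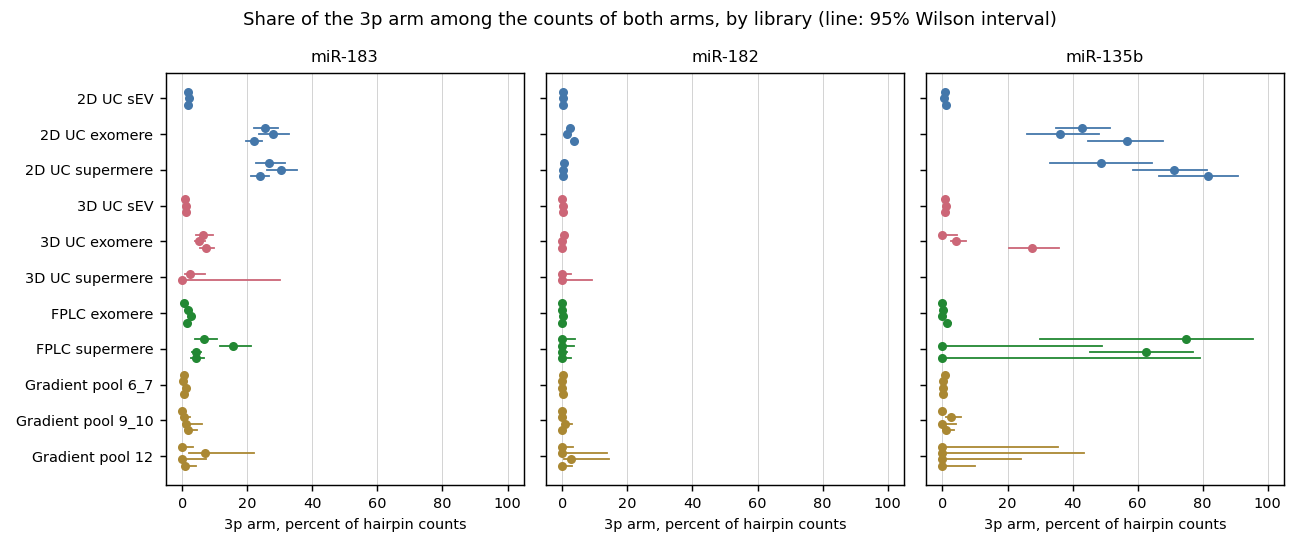
Percent of the 3p arm among the counts of both arms for the miR-183, miR-182 and miR-135b hairpins, 1 point per library with its 95% Wilson interval, by group. For miR-183 the 2D exomere and supermere libraries lie at 22.0% to 30.5% and the sEV libraries at 2.08% or below.

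Other miRNAs known as raised in colorectal tumours gave the wider setting. Of 16 such miRNAs, all tested, 7 fell in 2D exomeres and 10 in 2D supermeres against sEV (median log2 -2.84 and -3.40), 11 fell in each of the 3D UC particles with 1 higher in exomeres, and 16 fell in pool 12 against pool 6_7. Of miRNA rows, 14.7%, 22.2%, 25.5%, 21.3% and 43.8% were lower in these 5 comparisons. The most abundant of them, the oncogenic miR-21-5p, was not called in 2D exomeres (log2 0.90, SE 0.612, adjusted p = 0.448) but fell in 3D UC exomeres (log2 -4.86, SE 0.715, adjusted p = 4.2e-08). miR-92a-3p, of the miR-17 to miR-92a cluster, was the 1 that rose in 3D UC exomeres against sEV (log2 2.10, SE 0.685, adjusted p = 0.0441). With TMM it was not called (log2 2.21, adjusted p = 0.0516).

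Of 10 miRNAs known as lowered in such tumours, 9 were in the table and 5 were tested. In 2D exomeres 1 of them fell and in 2D supermeres 2; in 3D UC exomeres 0 and in supermeres 1; in pool 12 against pool 6_7 2 fell. With 5 tested, counts of 0 to 2 cannot be set apart from the shares of miRNA rows that were lower in the same comparisons, given above. The epithelial and islet miRNA miR-375-3p, the most abundant of these, was not called in 2D or 3D UC exomeres against sEV (log2 0.63, SE 0.737, adjusted p = 0.571, and log2 -0.37, SE 0.735, adjusted p = 0.957). miR-378a-3p, a miRNA of metabolic genes, fell in 2D supermeres (log2 -2.84, SE 0.882, adjusted p = 0.0267) and 3D UC supermeres (log2 -3.55, SE 1.08, adjusted p = 0.0296). The latter call was lost with miRNA totals (log2 -1.46, adjusted p = 0.607) and in DESeq2 (log2 -1.34, adjusted p = 0.143).

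Likeness was measured as Pearson's r of log2(CPM of miRNA + 10) over the 11 group means, against 576 other miRNA rows, as a description only, since groups share cells and pools. miR-135b-5p was most like miR-429, miR-186-5p and miR-200c-3p (r = 0.99 each). miR-182-5p was most like miR-200b-5p (0.99), let-7f-5p (0.98) and miR-141-3p (0.97), so members of the miR-200 family were nearest to both. miR-96-5p was most like miR-98-5p (0.98), miR-27a-3p (0.98) and miR-142-5p (0.97). miR-183-5p had the nearest rows at lower values, miR-146b-5p (0.97), miR-181c-5p (0.96) and miR-361-3p (0.95). With its own cluster partners r was 0.91 (miR-182-5p) and 0.88 (miR-96-5p), and between the latter pair 0.95. miR-31-5p was most like miR-6511a-3p (0.98), miR-153-3p (0.90) and miR-330-5p (0.89), on too few counts to read further.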

How the data were processed

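Small RNA from 38 libraries was treated with AlkB to remove methyl groups that block copying, and sequenced; tools named in the submitters' processing notes are cutadapt 4.5, FastQC 0.12.1 and Bowtie 1.3.1 with GRCh38.p13. The counting tool is not given in the sources used here. The authors deposited estimated counts per feature (6.71% of values not whole), which were rounded for tests and used unrounded for CPM. The members and lists were chosen with earlier results of these data known. The library with 46 counts was left out.

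One edgeR 4.0.16 quasi-likelihood model (R 4.3.3, robust) was fitted to 37 libraries with 11 group means (26 residual degrees of freedom; common biological coefficient of variation 1.29). Library totals were the only scaling, since the members are followed as CPM; filterByExpr with a minimum count of 10 kept 8979 features. SE is the log2 fold change divided by the root of F. Calls had Benjamini-Hochberg adjusted p below 0.05. Data were simulated with this spread for 2D exomeres against 2D sEV only. The largest folds, which were all falls, were mostly recovered, at about their true size. The smaller changes simulated were never called and most others short of the largest were missed. Changes were placed only in features within a limited range of CPM, and the most abundant members lay above it in 2D sEV. The simulation therefore does not give the power for those members or for the other comparisons. A missed threshold is not taken to show that there was no change. Alternatives were TMM, miRNA totals as library sizes, DESeq2 1.42.0, no filter, the near-empty library kept, a replicate block, and each library left out. The named miRNAs are the members, other arms and paralogs, the 3 most alike rows per member and the 2 most abundant of each list. Wilson intervals are at 95%.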

Additional observations from a re-analysis of the deposited data

Results flagged for a closer look

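In groups of 4, 46 series of 1 miRNA in 1 group on 1 scale were checked for a library far from the other 3, and 8 were found. Chance flags about 1 in 20 groups, but that rate does not apply directly here: 4 of the 8 are miR-31-5p with 3 libraries at 0, which meets the criterion by construction, and both scales use the same libraries. miR-31-5p was at 2.64 CPM (8.71 CPM of miRNA) in gradient pool 6_7 replicate B and at 10.8 CPM (23.7 CPM of miRNA) in pool 9_10 replicate D, with 0 in the other 3 libraries of each pool. FPLC exomere replicate B had 692 CPM of miR-135b-5p against 131 to 206 in the others, and 3579 CPM of miR-182-5p against 955 to 1225. In CPM of miRNA neither was flagged (1450 against 817 to 1215, and 7499 against 4909 to 9074). miRNAs were 47.7% of counts in that library and 10.8%, 19.5% and 23.2% in the others. Pool 9_10 replicate B had 1744 CPM of miR-135b-5p against 1061 to 1142, and 12883 CPM of miRNA of miR-182-5p against 7499 to 7875.

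The supermere to sEV gap of miR-135b-5p differed between 3D and 2D by a fitted log2 of -7.47 (edgeR interaction, adjusted p = 0.0338), with both 3D supermere libraries at 0 counts; the call did not hold under 4 of the alternatives named beside it above.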

How the results depend on the processing

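Calls for all features depended strongly on the scaling. All sign changes below were of log2 fold changes that did not pass the threshold with library totals; where no value here shows a cause, the cause was not tested. With TMM scaling, features called were 2D exomere against 2D sEV 579 (reported 381; 41 higher and 538 lower, reported 101 and 280), 2D supermere against 2D exomere 5 (reported 11), 3D exomere against 2D exomere 483 (reported 4442; 309 higher and 174 lower, reported 82 and 4360), 3D sEV against 2D sEV 176 (reported 73), 3D supermere against 2D supermere 182 (reported 747; 130 higher and 52 lower, reported 76 and 671), 3D supermere against 3D exomere 22 (reported 26; 8 higher and 14 lower, reported 4 and 22), FPLC exomere against 3D exomere 509 (reported 1012; 337 higher and 172 lower, reported 950 and 62), FPLC supermere against 3D supermere 19 (reported 42; 9 higher and 10 lower, reported 7 and 35), FPLC supermere against FPLC exomere 548 (reported 4330; 136 higher and 412 lower, reported 21 and 4309), pool 12 against pool 6_7 660 (reported 584; 184 higher and 476 lower, reported 100 and 484), pool 12 against pool 9_10 396 (reported 3961; 222 higher and 174 lower, reported 58 and 3903), pool 9_10 against pool 6_7 747 (reported 3807; 352 higher and 395 lower, reported 3795 and 12), the exomere interaction 101 (reported 76; 65 higher and 36 lower, reported 7 and 69) and the supermere interaction 102 (reported 108; 35 higher and 67 lower, reported 19 and 89). The sign changed for miR-135b-5p in pool 9_10 against pool 6_7 -2.74, miR-182-5p in 2D supermere against 2D exomere 0.44, 3D sEV against 2D sEV 0.79, 3D exomere against 2D exomere 1.15, FPLC supermere against 3D supermere 1.04 and the exomere interaction 0.35, miR-183-5p in 2D supermere against 2D exomere 1.04, 3D sEV against 2D sEV 0.84 and 3D supermere against 2D supermere 0.18 and miR-96-5p in 3D exomere against 2D exomere 1.31 and the exomere interaction 0.35. With miRNA totals, features called were 2D supermere against 2D exomere 6 (reported 11), 3D exomere against 2D exomere 422 (reported 4442; 318 higher and 104 lower, reported 82 and 4360), 3D exomere against 3D sEV 247 (reported 447; 83 higher and 164 lower, reported 10 and 437), 3D sEV against 2D sEV 156 (reported 73), 3D supermere against 2D supermere 263 (reported 747; 248 higher and 15 lower, reported 76 and 671), 3D supermere against 3D exomere 83 (reported 26; 73 higher and 10 lower, reported 4 and 22), 3D supermere against 3D sEV 286 (reported 362; 160 higher and 126 lower, reported 5 and 357), FPLC exomere against 3D exomere 446 (reported 1012; 264 higher and 182 lower, reported 950 and 62), FPLC supermere against 3D supermere 118 (reported 42; 5 higher and 113 lower, reported 7 and 35), FPLC supermere against FPLC exomere 656 (reported 4330; 116 higher and 540 lower, reported 21 and 4309), the exomere interaction 101 (reported 76; 75 higher and 26 lower, reported 7 and 69) and the supermere interaction 138 (reported 108; 108 higher and 30 lower, reported 19 and 89). The sign changed for miR-182-5p in 3D sEV against 2D sEV 0.78, 3D exomere against 2D exomere 1.39, 3D supermere against 2D supermere 0.71 and the exomere interaction 0.62, miR-183-5p in 2D supermere against 2D exomere 0.28, 3D sEV against 2D sEV 0.82, 3D supermere against 2D supermere 2.07 and the supermere interaction 1.25 and miR-96-5p in 3D supermere against 3D exomere 0.50, 3D exomere against 2D exomere 1.49 and the exomere interaction 0.64. In DESeq2, features called were 2D supermere against 2D exomere 132 (reported 11; 60 higher and 72 lower, reported 0 and 11), 2D supermere against 2D sEV 694 (reported 532; 254 higher and 440 lower, reported 126 and 406), 3D exomere against 2D exomere 1199 (reported 4442; 257 higher and 942 lower, reported 82 and 4360), 3D exomere against 3D sEV 588 (reported 447; 235 higher and 353 lower, reported 10 and 437), 3D sEV against 2D sEV 482 (reported 73; 148 higher and 334 lower, reported 66 and 7), 3D supermere against 2D supermere 829 (reported 747; 169 higher and 660 lower, reported 76 and 671), 3D supermere against 3D exomere 134 (reported 26; 95 higher and 39 lower, reported 4 and 22), 3D supermere against 3D sEV 483 (reported 362; 236 higher and 247 lower, reported 5 and 357), FPLC exomere against 3D exomere 653 (reported 1012; 504 higher and 149 lower, reported 950 and 62), FPLC supermere against 3D supermere 103 (reported 42; 49 higher and 54 lower, reported 7 and 35), FPLC supermere against FPLC exomere 632 (reported 4330; 226 higher and 406 lower, reported 21 and 4309), pool 12 against pool 6_7 1281 (reported 584; 987 higher and 294 lower, reported 100 and 484), pool 12 against pool 9_10 694 (reported 3961; 298 higher and 396 lower, reported 58 and 3903), pool 9_10 against pool 6_7 2120 (reported 3807), the exomere interaction 247 (reported 76; 155 higher and 92 lower, reported 7 and 69) and the supermere interaction 259 (reported 108; 140 higher and 119 lower, reported 19 and 89). The sign changed for miR-135b-5p in pool 9_10 against pool 6_7 -0.48, miR-182-5p in 2D supermere against 2D exomere 0.07, FPLC supermere against 3D supermere 0.78 and the exomere interaction 0.51, miR-183-5p in 2D supermere against 2D exomere 0.73 and the supermere interaction 0.56 and miR-96-5p in 3D supermere against 3D exomere 0.17, 3D sEV against 2D sEV -0.43, 3D exomere against 2D exomere 0.15 and the exomere interaction 0.58. Without the filter, features called were 2D supermere against 2D exomere 7 (reported 11), 3D exomere against 2D exomere 1770 (reported 4442), 3D exomere against 3D sEV 273 (reported 447), 3D supermere against 2D supermere 144 (reported 747; 38 higher and 106 lower, reported 76 and 671), 3D supermere against 3D exomere 14 (reported 26), FPLC exomere against 3D exomere 334 (reported 1012), FPLC supermere against 3D supermere 27 (reported 42), FPLC supermere against FPLC exomere 2589 (reported 4330), pool 12 against pool 9_10 2588 (reported 3961), the exomere interaction 29 (reported 76) and the supermere interaction 71 (reported 108). With the near-empty library kept, features called were 2D supermere against 2D exomere 7 (reported 11) and 3D supermere against 2D supermere 1128 (reported 747). With a replicate block, features called were FPLC exomere against 3D exomere 550 (reported 1012) and FPLC supermere against FPLC exomere 2702 (reported 4330). The sign changed for miR-135b-5p in pool 9_10 against pool 6_7 -0.01. Leaving out 1 library at a time gave feature counts of 3 to 12 in 2D supermere against 2D exomere, 206 to 365 in 3D exomere against 3D sEV, 95 to 309 in 3D supermere against 3D sEV, 8 to 25 in 3D supermere against 3D exomere, 4 to 62 in 3D sEV against 2D sEV, 439 to 4169 in 3D exomere against 2D exomere, 35 to 1124 in 3D supermere against 2D supermere, 224 to 1490 in FPLC exomere against 3D exomere, 9 to 46 in FPLC supermere against 3D supermere, 1990 to 4775 in FPLC supermere against FPLC exomere, 2177 to 3667 in pool 9_10 against pool 6_7, 2481 to 3827 in pool 12 against pool 9_10, 25 to 59 in the exomere interaction and 22 to 120 in the supermere interaction. Signs changed in that way for miR-135b-5p in pool 9_10 against pool 6_7 (from -0.18 to 0.20), miR-182-5p in 3D sEV against 2D sEV (from -0.31 to 0.09), miR-182-5p in FPLC supermere against 3D supermere (from -1.12 to 1.94), miR-183-5p in 2D supermere against 2D exomere (from -0.14 to 0.08), miR-183-5p in 3D sEV against 2D sEV (from -0.23 to 0.12), miR-183-5p in 3D exomere against 2D exomere (from -0.22 to 0.34), miR-183-5p in 3D supermere against 2D supermere (from -4.68 to 0.03), miR-183-5p in the exomere interaction (from -0.20 to 0.39), miR-183-5p in the supermere interaction (from -4.65 to 0.06), miR-96-5p in 3D supermere against 3D exomere (from -2.13 to 0.13), miR-96-5p in 3D sEV against 2D sEV (from -0.40 to 0.27), miR-96-5p in 3D supermere against 2D supermere (from -0.69 to 1.57), miR-96-5p in pool 9_10 against pool 6_7 (from -0.28 to 0.11) and miR-96-5p in the supermere interaction (from -0.77 to 1.49). Of the members' values under the other settings, 365 kept their side of the threshold and their sign, 33 changed sign, 22 lost and 14 gained a call. With 1 library left out these were 460, 28, 19 and 2. A value that changed sign is counted only as such, even where it gained a call, as miR-135b-5p did in pool 9_10 against pool 6_7 with TMM. The deviations of same-letter libraries had a median correlation of 0.01 in 2D and in 3D. In 2D the highest was 0.42, against 0.15 for different letters, and in 3D 0.21 against 0.29. Correlations over mostly low counts cannot tell whether libraries of 1 letter share a medium pool. The block changed 1 member call, miR-31-5p in FPLC supermere against exomere (-5.12, adjusted p = 0.0841). Depth limits miR-31-5p, and pool 9_10, whose libraries held 81079 to 490374 counts.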
